A study of Mus musculus with 2 samples.

Results

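Barcodes that carried 1 T cell receptor beta chain and no alpha chain were examined in thymic CD4 single positive (SP) T cells. A barcode marks the transcripts of 1 droplet, taken as 1 cell. Members were the barcodes with exactly 1 productive TRB contig and no TRA contig, called beta-only here, and they numbered 5615 of the 9117 barcodes with a receptor. The WT library held 2336 of them among 4040 barcodes, and the Btla-/- library held 3279 among 5077. They were set against paired barcodes, which had exactly 1 TRA and 1 TRB contig and numbered 1406 in WT and 1466 in Btla-/-.

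The WT library came from C57BL/6J mice with intact Btla, and the other library from mice with a germline deletion of Btla, the gene for an inhibitory receptor of lymphocytes (strain label C57BL/6-Btla KO). Mice of both genotypes were 8 to 12 weeks old, and CD4 SP cells were enriched from thymus by removing other cells with a kit designed for naive CD4 T cells. Each genotype was 1 library, and the number of mice behind it is not given in the sources used here. The labels give no treatment beyond the genotype, and neither genotype has a replicate library. The libraries hold T cell receptor transcripts alone, so neither the Btla deletion nor CD4, CD8 or other markers could be checked. The only check of cell identity was that every barcode had a productive alpha or beta chain. With 1 library per genotype no test was made, and shares are followed by exact (Clopper-Pearson) 95% intervals, which cover counting error only.

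In the thymus the beta chain is rearranged before the alpha chain. A D segment joins a J segment, a V segment joins the DJ product, and the beta chain is then tested at the cell surface together with the invariant pre-T alpha chain. Alpha rearrangement follows at the double positive stage, and a thymocyte has to show a complete alpha/beta receptor to be positively selected into the CD4 SP pool. Mature CD4 SP cells therefore carry both chains, while a contig is a record of captured and assembled transcripts, and the absence of one is not the absence of the transcript. The complementarity-determining region 3 (CDR3) is the loop in which the segments meet. It is the most variable part of the chain.

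The beta sequences that recurred most among beta-only barcodes show what a member consists of. Each is the CDR3 from the codon of the conserved cysteine to that of the conserved phenylalanine, 5′ to 3′, as assembled by the authors. Lower case marks the bases that match the germline end of the V segment on the left and of the J segment on the right in GRCm38, and capitals mark the bases between them, which come from the D segment and from nucleotides added at the joints. The first was the most frequent beta of the WT members, found in 6 barcodes, and the next 5 were the most frequent of the Btla-/- members, each found in 3 barcodes. None of these 6 was found in a paired barcode. Few members had a beta found in one, 42 of 2336 in WT and 42 of 3279 in Btla-/-.
WT TRBV29 TRBJ2-1: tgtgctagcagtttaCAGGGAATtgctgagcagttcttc
Btla-/- TRBV5 TRBJ2-5: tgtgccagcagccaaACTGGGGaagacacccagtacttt
Btla-/- TRBV13-1 TRBJ1-6: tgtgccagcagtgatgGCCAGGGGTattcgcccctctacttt
Btla-/- TRBV16 TRBJ1-5: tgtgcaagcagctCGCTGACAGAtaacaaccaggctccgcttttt
Btla-/- TRBV17 TRBJ2-4: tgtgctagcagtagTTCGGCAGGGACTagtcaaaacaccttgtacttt
Btla-/- TRBV29 TRBJ1-1: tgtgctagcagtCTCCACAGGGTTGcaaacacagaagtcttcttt

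The next 4 are the betas of beta-only barcodes that were found in most paired barcodes, 2 paired barcodes each. They are shown because an alpha partner of the same beta could be read from the paired barcodes. The alpha chain of the member itself was not read and need not be the same.
WT TRBV13-3 TRBJ1-1: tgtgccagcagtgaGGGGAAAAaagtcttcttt
WT TRBV29 TRBJ1-6: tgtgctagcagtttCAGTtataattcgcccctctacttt
WT TRBV12-2+TRBV13-2 TRBJ2-7: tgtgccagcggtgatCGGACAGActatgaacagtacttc
Btla-/- TRBV14 TRBJ2-7: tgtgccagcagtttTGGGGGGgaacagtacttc

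Beta-only barcodes made up 57.8% (56.3 to 59.4) of the WT library and 64.6% (63.3 to 65.9) of the Btla-/- library, so the share was higher in the Btla-/- library and the intervals were apart. Among barcodes with 1 beta chain and at most 1 alpha chain, the share without alpha was 62.4% (60.9 to 64.0) in WT and 69.1% (67.8 to 70.4) in Btla-/-. The reverse, 1 alpha chain without beta, was seen in 31 WT barcodes (0.767%) and 63 Btla-/- barcodes (1.24%). Whether the higher share belongs to the genotype or to the library cannot be told apart with 1 library each.

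No barcode without an alpha chain had 2 beta chains, which was 0 of 2336 in WT and 0 of 3279 in Btla-/-. The intervals of these zeros reach 0.158% and 0.112%. Of the barcodes that had at least 1 alpha chain and a beta chain, 132 of 1673 (7.89%, 6.64 to 9.29) in WT and 167 of 1735 (9.63%, 8.28 to 11.1) in Btla-/- had 2 beta chains. The zeros were counted over all barcodes without an alpha chain, whatever their number of beta chains, and are a description. Whether they come from the cells or from how barcodes and contigs were admitted to the data was not tested.

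The medians of the beta transcripts were equal in beta-only and paired barcodes, and the sets differed at the ends of the distribution. Transcripts were counted as unique molecular identifiers (UMIs), which tag single captured molecules. In WT, beta-only barcodes had from 1 to 222 beta UMIs with a median of 13, and paired barcodes from 1 to 182 with a median of 13. In Btla-/-, the range was 2 to 144 with a median of 10 for beta-only and 1 to 168 with a median of 10 for paired barcodes. The quartiles were 8 and 23 against 8 and 20 in WT, and 6 and 17 against 6 and 16 in Btla-/-. The mean was 19.1 against 15.5 UMIs in WT and 13.9 against 12.6 UMIs in Btla-/-.

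Barcodes with 40 or more beta UMIs were 9.55% (8.38 to 10.8) of the WT members against 3.70% (2.77 to 4.82) of the WT paired barcodes. In Btla-/- they were 3.96% (3.32 to 4.69) against 2.18% (1.498 to 3.07). The intervals were apart in both libraries, while the limit of 40 was chosen after the values were seen. At 80 or more UMIs the WT shares were 2.31% and 0.356%, apart again, and the Btla-/- shares were 0.579% and 0.136%, with overlapping intervals. At the lower end, 1 WT and 0 Btla-/- members rested on a single beta UMI, against 6 (0.427%, 0.157 to 0.927) and 13 (0.887%, 0.473 to 1.51) paired barcodes. For a single UMI the intervals were apart in Btla-/-, where the members' interval reached 0.112%, and overlapped in WT. A member is in the data through its beta contig alone, while a paired barcode also has an alpha contig. The sets can thus differ at the lowest UMI counts by how barcodes were admitted, which was not tested. Reads per UMI were close, with medians of 335 and 335 in WT and 291 and 298 in Btla-/- for beta-only and paired barcodes.

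**Figure D1:**
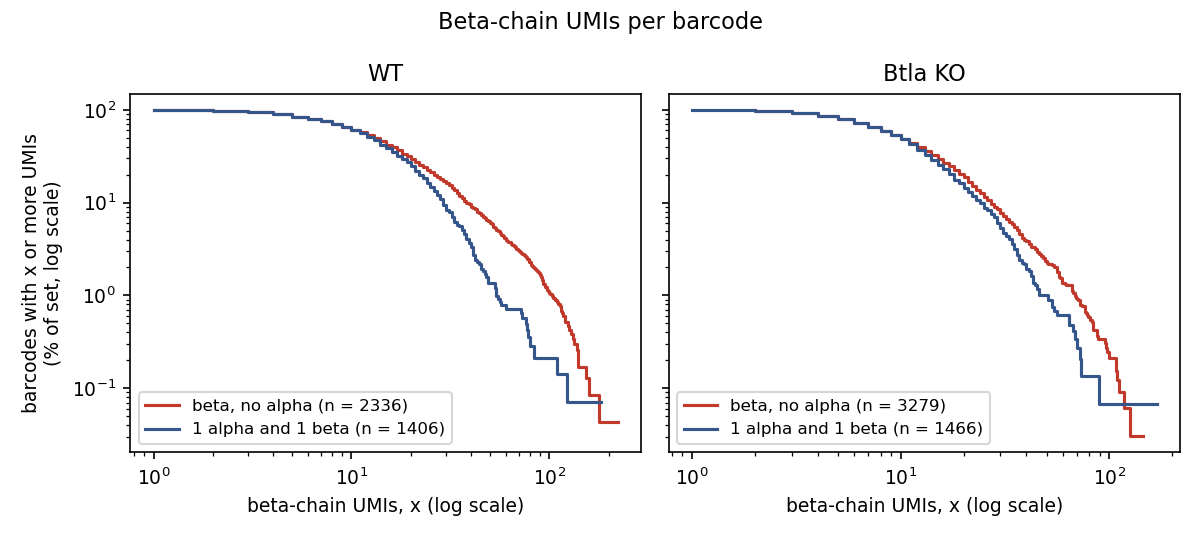
Share of barcodes with at least a given number of beta-chain UMIs (both axes logarithmic), for beta-only (red) and paired (blue) barcodes of each library. The curves lie on each other up to about the medians of 13 and 10 UMIs, and the red curve lies higher beyond, with 9.55% against 3.70% at 40 UMIs in WT and 3.96% against 2.18% in Btla KO.

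The alpha chain had fewer UMIs than the beta chain in most paired barcodes, and more in 82 of 1406 in WT and 76 of 1466 in Btla-/-. Paired barcodes had a median of 3 alpha UMIs in both libraries, with means of 4.08 in WT and 3.13 in Btla-/-, and there were 3.81 and 4.02 beta UMIs for each alpha UMI. A single UMI supported the alpha chain in 205 WT paired barcodes (14.6%, 12.8 to 16.5) and in 285 Btla-/- ones (19.4%, 17.4 to 21.6). In WT this share fell from 27.2% (18.9 to 36.8) of paired barcodes with 3 to 4 beta UMIs to 8.21% (5.68 to 11.4) of those with 20 and over. In Btla-/- it was 19.5% (13.5 to 26.6) and 15.5% (11.1 to 20.7). Between them it was 22.0% at 5 to 9 and 18.5% at 10 to 19, and these Btla-/- intervals overlapped. All these values come from barcodes in which an alpha chain was found.

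The share of barcodes without alpha was taken over the same bins of beta UMIs. In WT, 65.6% (59.9 to 70.9) of barcodes with 3 to 4 beta UMIs had no alpha chain, 62.9% (59.7 to 66.0) of those with 5 to 9, 59.4% (56.7 to 62.1) of those with 10 to 19 and 65.4% (62.5 to 68.2) of those with 20 and over. In Btla-/- the shares in the same order were 71.3% (67.2 to 75.1), 68.9% (66.6 to 71.2), 66.9% (64.6 to 69.2) and 73.7% (70.7 to 76.5). In both libraries the lowest of these 4 shares was at 10 to 19 UMIs and its interval was apart from that at 20 and over. With 2 beta UMIs the shares were 56.9% and 64.1%, with wide intervals, and with 1 UMI they were 1 of 7 and 0 of 13 barcodes. The limit given above on how barcodes were admitted applies to these lowest counts.

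At matched beta UMIs the Btla-/- share exceeded the WT share in each bin from 2 UMIs on. The intervals of the libraries were apart at 5 to 9 UMIs (6.06 percentage points), at 10 to 19 (7.49) and at 20 and over (8.28), and overlapped at 2 and at 3 to 4. The Btla-/- share was thus higher at like numbers of beta UMIs. The lower mean number of alpha UMIs in the Btla-/- paired barcodes moved with it, and its part in the share was not tested.

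**Figure D2:**
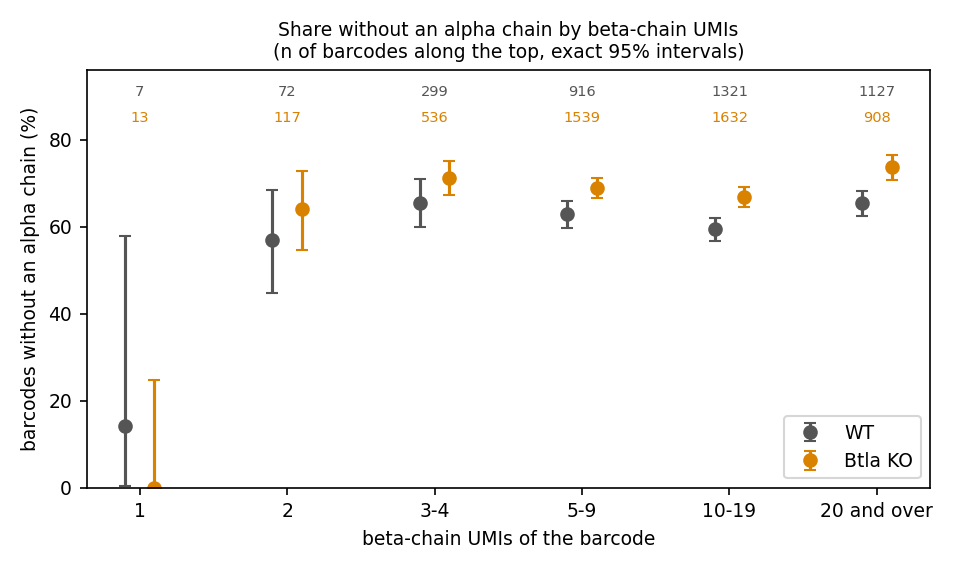
Share of barcodes without an alpha chain among barcodes with 1 beta and at most 1 alpha chain, by beta-chain UMIs, in WT (grey) and Btla KO (orange), with exact 95% intervals and the number of barcodes along the top. From 2 UMIs on every share is between 56.9% and 73.7% and the Btla KO point is the higher one, with intervals apart in the last 3 bins.

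No TRBV gene had intervals apart between beta-only and paired barcodes. The TRBV cluster lies on chromosome 6 upstream of the D, J and C segments, apart from TRBV31, which lies downstream of TRBC2 on the other strand. A gene was compared when it held at least 1% of either set. The intervals of beta-only and paired barcodes were apart for 0 of 20 genes in WT (0%) and for 0 of 21 in Btla-/- (0%). The largest differences were 1.26 percentage points in WT and 1.75 in Btla-/-. Overlapping intervals do not show equal use, and a difference can exceed its own counting error while the intervals overlap.

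TRBV12-1 (GRCm38, chr6:41113550-41114067) was the gene with both of those differences. It was used by 169 WT members (7.23%, 6.22 to 8.36) against 84 paired barcodes (5.97%, 4.79 to 7.34), and by 252 Btla-/- members (7.69%, 6.80 to 8.65) against 87 paired barcodes (5.93%, 4.78 to 7.27). It was thus higher in the members of both libraries, with overlapping intervals each time.

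TRBV31 (chr6:41557691-41558452, minus strand), the TRBV gene that joins by inversion, was lower in the members of both libraries. It was used by 84 WT members (3.596%, 2.88 to 4.43) against 66 paired barcodes (4.69%, 3.65 to 5.93), and by 115 Btla-/- members (3.51%, 2.90 to 4.19) against 69 paired barcodes (4.71%, 3.68 to 5.92). TRBV16 (chr6:41151740-41152230) was used by 4.75% against 5.90% in WT and by 5.92% against 6.68% in Btla-/-. The intervals overlapped for both genes in both libraries.

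The most used calls of the members were the joint call TRBV12-2+TRBV13-2, TRBV5 and TRBV12-1. The joint call names TRBV12-2 (chr6:41118851-41119364) and TRBV13-2 (chr6:41121396-41121832), which are neighbours. The joint-call CDR3 printed above matches the germline end of TRBV13-2 over 15 bases. It held 8.09% (7.02 to 9.27) of WT members against 8.18% (6.80 to 9.74) of paired barcodes and 7.65% (6.77 to 8.62) of Btla-/- members against 8.39% (7.02 to 9.93). TRBV5 (chr6:41062332-41062803) held 7.49% against 7.75% in WT and 7.41% against 6.62% in Btla-/-, a difference of -0.26 points in one library and 0.79 in the other. Of the 20 genes compared in both libraries, 15 differed in the same direction, 8 of them higher and 7 lower in the members.

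Between the genotypes, 1 of 21 TRBV genes (4.76%) had intervals apart among beta-only barcodes. TRBV14 (chr6:41135145-41135616) was used by 115 Btla-/- members (3.51%, 2.90 to 4.19) and by 50 WT members (2.14%, 1.59 to 2.81). Among paired barcodes its shares were 2.59% (1.84 to 3.54) in Btla-/- and 2.84% (2.04 to 3.85) in WT, so the difference seen in the members was not seen in the paired barcodes. It is 1 gene of 21 with no replicate library.

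**Figure D3:**
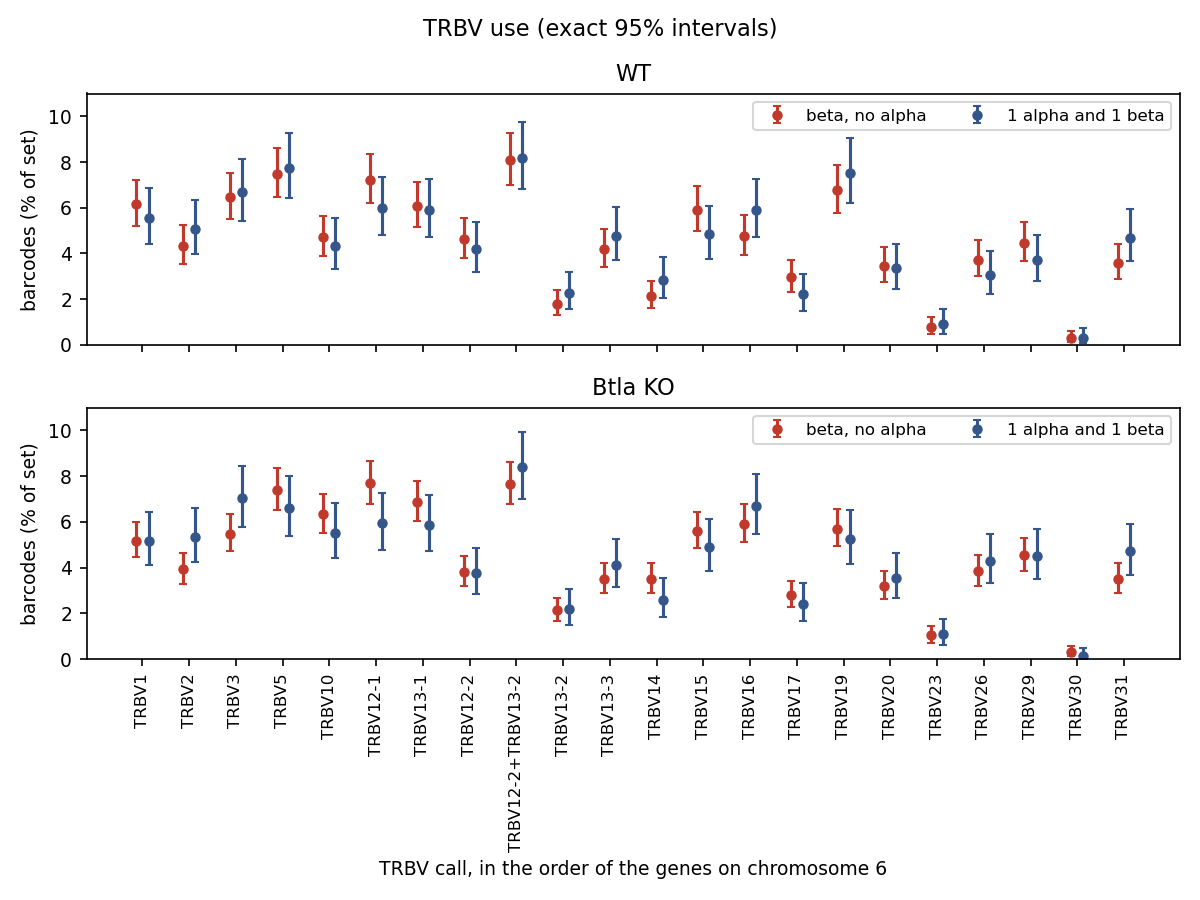
Share of barcodes with each TRBV call in WT (top) and Btla KO (bottom), for beta-only (red) and paired (blue) barcodes, with exact 95% intervals, in the order of the genes on chromosome 6. The intervals of red and blue overlap for every gene with at least 1% of either set, 20 in WT and 21 in Btla KO.

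TRBJ use was compared in the same way. The 6 TRBJ1 genes used lie between TRBD1 and TRBC1, and the 6 TRBJ2 genes used lie between TRBD2 and TRBC2. The intervals of beta-only and paired barcodes were apart for 0 of 12 genes (0%) in WT and for 0 of 12 (0%) in Btla-/-. TRBJ2-7 (chr6:41543810-41543856) was the most used, with 15.6% of WT members against 15.9% of paired barcodes and 14.5% of Btla-/- members against 15.7%. TRBJ1-1 (chr6:41533864-41533911) followed with 11.6% against 12.7% in WT and 11.1% against 11.5% in Btla-/-.

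TRBJ2-2 (chr6:41542957-41543007) had the largest difference in Btla-/- (-2.12 percentage points), while in WT that of TRBJ2-3 was the largest (1.32). TRBJ2-2 was used by 120 WT members (5.14%, 4.28 to 6.11) against 87 paired barcodes (6.19%, 4.99 to 7.58), and by 181 Btla-/- members (5.52%, 4.76 to 6.36) against 112 paired barcodes (7.64%, 6.33 to 9.12). In Btla-/- the intervals overlapped between 6.33% and 6.36% alone and were apart under 3 of the other settings tried. TRBJ2-3 (chr6:41543223-41543271) went the other way, with 9.29% (8.14 to 10.5) against 7.97% (6.60 to 9.51) in WT and 9.67% (8.68 to 10.7) against 8.39% (7.02 to 9.93) in Btla-/-. Of the 12 TRBJ genes, 7 differed in the same direction in both libraries. Between the genotypes, 0 of 12 TRBJ genes (0%) had intervals apart among beta-only barcodes. Among paired barcodes it was 1 of 12 (8.33%), TRBJ1-6, with 2.46% in Btla-/- and 4.48% in WT against 3.84% and 3.77% in the members.

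The constant region followed the J segment. TRBC1 was called in 39.5% (37.5 to 41.5) of WT members against 40.3% (37.8 to 42.9) of paired barcodes, and in 40.2% (38.5 to 41.9) of Btla-/- members against 37.4% (34.96 to 39.98). TRBC2 was called in 60.4% against 59.4% in WT and in 59.2% against 61.9% in Btla-/-. No contig joined a J segment of one cluster to the C gene of the other, with 0 of 2334 in WT members and 0 of 3260 in Btla-/- members. A C gene was not called for 2 WT and 19 Btla-/- members, and all of these carried a TRBJ1 segment, while 2 of 4 and 7 of 10 such paired barcodes did.

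A D segment was called in a minority of contigs. No D call was made for 75.8% (74.0 to 77.5) of WT members against 78.0% (75.8 to 80.2) of paired barcodes, and for 76.5% (75.03 to 78.0) of Btla-/- members against 79.2% (77.0 to 81.2). TRBD2 lies downstream of the TRBJ1 genes and cannot join them by deletion. Of the members with a TRBD2 call, 2 of 165 in WT and 1 of 231 in Btla-/- were joined to a TRBJ1 segment, against 203 of 400 and 286 of 539 of those with a TRBD1 call.

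Beta-only barcodes had slightly longer beta CDR3s in both libraries. The mean length was 14.30 amino acids (SD 1.54 over 2336 barcodes) against 14.13 (SD 1.48 over 1406) in WT and 14.33 (SD 1.51 over 3279) against 14.16 (SD 1.51 over 1466) in Btla-/-. The difference was 0.17 amino acids in each library, small beside the SD over barcodes, and the median was 14 in all 4 sets. Members ranged from 8 to 20 amino acids in WT and from 9 to 20 in Btla-/-, paired barcodes from 7 to 20 and from 6 to 19.

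The single lengths with the largest differences were not the same in the libraries, which were not tested against each other. The differences were -2.81 percentage points at 13 and 2.52 at 16 amino acids in WT, and -2.37 at 14 and 2.50 at 15 in Btla-/-. The intervals of members and paired barcodes overlapped at each of these lengths. Only at 17 amino acids in WT were they apart, with 5.22% (4.36 to 6.20) against 2.92% (2.10 to 3.94). CDR3s of 16 or more amino acids were 20.2% (18.6 to 21.8) of WT members against 15.2% (13.4 to 17.2) of paired barcodes, with intervals apart. In Btla-/- they were 20.6% (19.3 to 22.1) against 17.5% (15.6 to 19.5), which overlapped. CDR3s of 15 or more were 45.7% (43.9 to 47.4) against 39.97% (37.5 to 42.5) in Btla-/-, apart, and 45.2% (43.1 to 47.2) against 41.1% (38.5 to 43.7) in WT, overlapping. CDR3s of 13 or fewer were 26.2% (24.4 to 28.0) against 30.7% (28.3 to 33.2) in WT, apart, and 25.7% (24.2 to 27.2) against 29.0% (26.7 to 31.4) in Btla-/-, overlapping. Each limit thus separated the sets in 1 library, and all 3 limits were chosen after the values were seen.

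**Figure D4:**
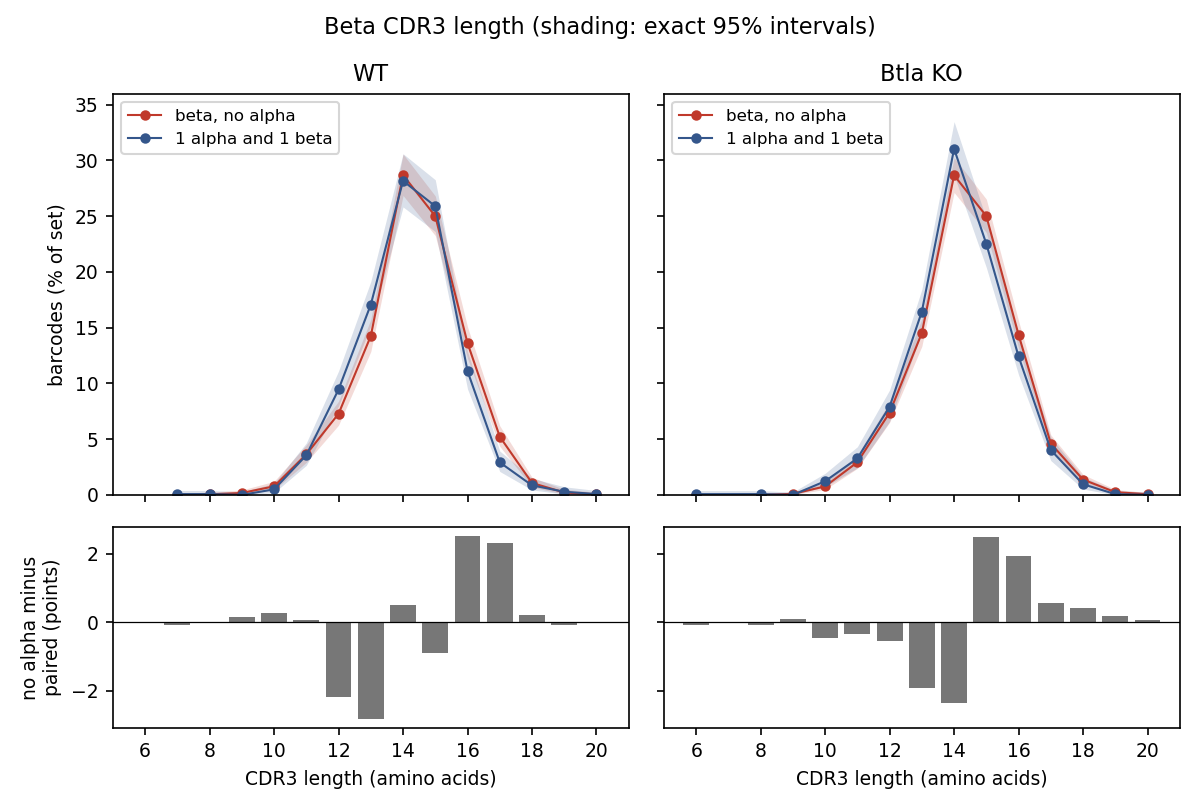
Share of barcodes by beta CDR3 length in amino acids (upper panels, beta-only red, paired blue, shading for exact 95% intervals) and the difference of the shares in percentage points (lower panels). The difference is below 0 at 12 and 13 amino acids and above 0 at 16 and 17 in both libraries, and the largest bars are at 13 and 16 in WT and at 14 and 15 in Btla KO.

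Most of the added length lay between the germline ends. CDR3s were split as in the sequences above, for all V genes except TRBV10, whose CDR3 start could not be located in the genome. The bases between the V and J ends numbered 10.7 (SD 3.95 over 2226 barcodes) in WT members against 10.2 (SD 3.83 over 1345) in paired barcodes, and 10.8 (SD 4.01 over 3071) against 10.4 (SD 3.95 over 1385) in Btla-/-. The difference was 0.437 bases in WT and 0.365 in Btla-/-, of 0.556 and 0.511 bases over the whole CDR3. J-encoded bases added 0.141 and 0.139, and V-encoded bases -0.023 and 0.007. A base of the middle that equals the germline by chance is counted as germline.

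The length difference was found across segments more than within a few. Among 20 TRBV genes with at least 20 barcodes in each set, members had the longer mean in 14 in WT and 16 in Btla-/-, in both libraries in 11, and the shorter mean in both in 1. Among 12 TRBJ genes, members were longer in 11 in WT and 10 in Btla-/-, in both in 9 and shorter in both in 0. TRBJ2-4 members averaged 14.72 against 14.35 amino acids in WT and 14.64 against 14.37 in Btla-/-, and TRBV3 members averaged 14.35 against 14.01 and 14.63 against 14.05. Both genes were picked after their values were seen.

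By beta UMIs the difference was uneven. It was 0.39 and 0.15 amino acids at 2 UMIs in WT and Btla-/-, with 41 and 75 members, -0.01 and 0.01 at 3 to 4, 0.08 and 0.08 at 5 to 9, 0.36 and 0.22 at 10 to 19 and 0.09 and 0.40 at 20 and over. Of the bins from 3 UMIs on, the difference was largest at 10 to 19 in WT and at 20 and over in Btla-/-.

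For hydrophobic residues and for a further cysteine, the intervals of members and paired barcodes overlapped in both libraries. Hydrophobic residues at both positions 6 and 7 of the CDR3, counted from the cysteine as 1, are known to favour self-reactive receptors. They were present in 48 WT members (2.05%, 1.52 to 2.72) against 35 paired barcodes (2.49%, 1.74 to 3.45), and in 71 Btla-/- members (2.17%, 1.69 to 2.72) against 27 paired barcodes (1.84%, 1.22 to 2.67). A further cysteine anywhere in the CDR3 was present in 6.98% (5.98 to 8.09) against 6.33% (5.11 to 7.73) in WT. In Btla-/- it was present in 5.98% (5.19 to 6.84) against 6.34% (5.15 to 7.72). This count takes in the cysteine that the germline CDR3 start of TRBV1 encodes. In WT, 163 members and 89 paired barcodes had a further cysteine, and 144 and 78 used TRBV1. In Btla-/- the numbers were 196 and 93, and 170 and 76 used TRBV1. The count can thus follow TRBV1 use, and cysteines that arise at the joints were not counted apart. The mean net charge was -0.71 against -0.70 in WT and -0.71 against -0.72 in Btla-/-.

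Identical betas recurred among barcodes of the same library. A beta was called identical when TRBV, TRBJ and all CDR3 nucleotides were equal. Of the WT members, 172 of 2336 (7.36%, 6.34 to 8.50) shared their beta with another member, and of the Btla-/- members 251 of 3279 (7.65%, 6.77 to 8.62). Of the paired barcodes, 41 of 1406 (2.92%, 2.10 to 3.94) in WT and 68 of 1466 (4.64%, 3.62 to 5.84) in Btla-/- shared theirs with another paired barcode. The chance to meet a copy grows with the number of barcodes, so pairs of barcodes were counted as well. In WT, 49.9 of 1000000 possible pairs of members had the same beta, against 22.3 of paired barcodes and 14.3 of mixed pairs. In Btla-/- the values were 24.7, 31.7 and 8.95.

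Betas found in 3 or more members were more numerous in WT. In WT, 14 betas were each found in 3 to 6 beta-only barcodes and covered 52 barcodes, and 13 of the 14 were found in no paired barcode. In Btla-/- there were 5 such betas in 15 barcodes, and none was found in a paired barcode. Over all members, 1.80% in WT and 1.28% in Btla-/- had a beta found in a paired barcode. Absence from the paired barcodes was thus common to nearly all members and not particular to repeated betas. When only betas found in 2 members were counted, 22.0 of 1000000 pairs of members matched in WT and 22.0 in Btla-/-. That setting was chosen after the values were seen, and leaving out the other repeated betas lowers the value in any case. The paired barcodes were not limited in this way.

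The WT beta of TRBV29 and TRBJ2-1 printed first had 4, 5, 7, 8, 9 and 12 UMIs in its 6 barcodes. A beta of TRBV1 and TRBJ2-7 had 4, 6, 7, 8 and 9 UMIs in 5 barcodes. The 52 barcodes had from 2 to 21 beta UMIs with a median of 7, below the median of 13 over all WT members. In Btla-/- the beta of TRBV16 and TRBJ1-5 had 13, 16 and 33 UMIs, that of TRBV5 and TRBJ2-5 had 10, 12 and 32, and that of TRBV29 and TRBJ1-1 had 11, 11 and 12. The 15 barcodes there had from 4 to 33 UMIs with a median of 11, against 10 over all members.

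Recurrence went with low UMI counts in WT. The share of WT members whose beta was in any other barcode with 1 beta chain was 16.8% (11.9 to 22.8) at 3 to 4 UMIs, 14.9% (12.1 to 18.1) at 5 to 9, 5.22% (3.77 to 7.02) at 10 to 19 and 3.12% (1.99 to 4.65) at 20 and over. Paired WT barcodes fell from 19.4% (12.3 to 28.4) at 3 to 4 to 1.54% (0.567 to 3.32) at 20 and over, and differed from the members with intervals apart at 5 to 9, where 17 of 340 (2.94% to 7.88%) recurred. In Btla-/- the members' shares were 10.2%, 9.71%, 9.98% and 5.23% in the same order, and the lowest of these was again at 20 and over. With 2 UMIs, 7 of 41 WT members and 5 of 75 Btla-/- members (6.67%, 2.20 to 14.9) recurred. The part of the UMI count in recurrence was not tested.

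**Figure D5:**
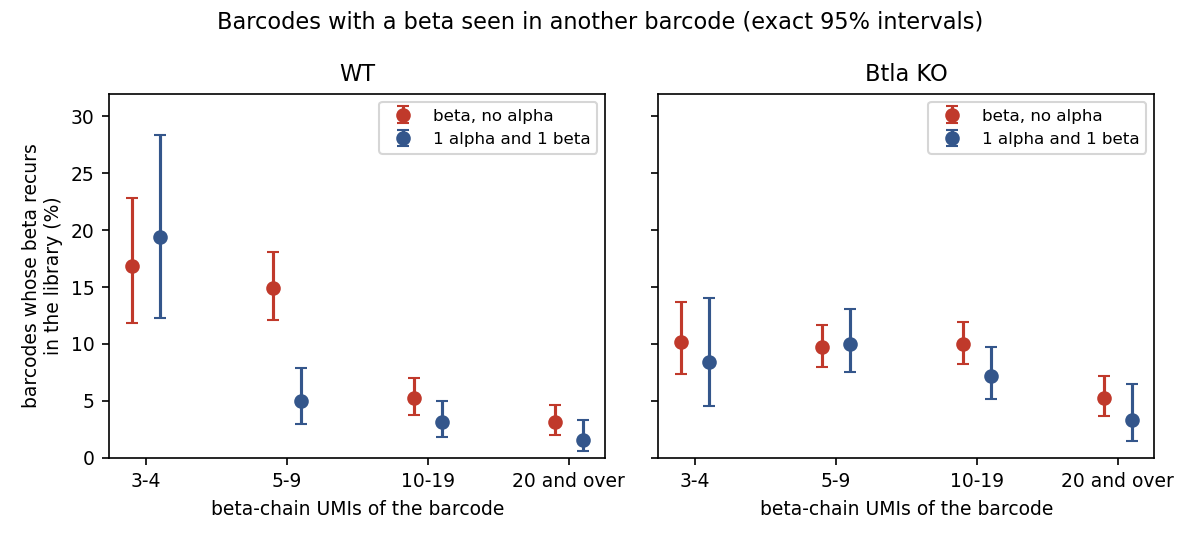
Share of barcodes whose beta (TRBV, TRBJ and CDR3 nucleotides) was found in another barcode with 1 beta chain of the same library, by beta-chain UMIs, for beta-only (red) and paired (blue) barcodes with exact 95% intervals. Barcodes with 3 or more UMIs are plotted. WT members fall from 16.8% at 3 to 4 UMIs to 3.12% at 20 and over, and Btla KO members lie between 9.71% and 10.2% in the bins from 3 to 19 UMIs and at 5.23% at 20 and over.

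Some members had a beta that was paired with an alpha chain elsewhere in the library. This held for 42 WT members (1.80%, 1.30 to 2.42) and 42 Btla-/- members (1.28%, 0.925 to 1.73). Where 2 paired barcodes had the same beta, their alpha chain was identical in 20 of 22 pairs in WT and in 26 of 34 in Btla-/-. The WT beta of TRBV13-3 and TRBJ1-1 had 3 and 7 beta UMIs in its members and 5 and 7 in its paired barcodes, in which 2 and 2 alpha UMIs gave the same alpha chain. The Btla-/- beta of TRBV14 and TRBJ2-7 had 4 beta UMIs in its member and 4 and 7 in its paired barcodes, with 2 and 5 alpha UMIs for 1 alpha chain. The WT beta of TRBV29 and TRBJ1-6 had 5 and 10 beta UMIs in its members and 3 and 5 in its paired barcodes. The WT beta of the joint call and TRBJ2-7 had 5 in its member and 2 and 4 in its paired barcodes. The beta UMIs of members and paired barcodes thus overlapped or touched for 3 of these 4 betas, and the member was the higher for the joint call.

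Across the libraries few betas were the same. The complete beta of a member was found in the other library for 0 WT members, with an interval that reaches 0.158%, and for 1 Btla-/- member. By CDR3 amino acids alone, 78 WT members (3.34%, 2.65 to 4.15) matched a barcode of the other library against 42 paired barcodes (2.99%, 2.16 to 4.02), and 70 Btla-/- members (2.13%, 1.67 to 2.69) against 49 paired barcodes (3.34%, 2.48 to 4.39). The intervals overlapped in both libraries. Of the barcode sequences, 30 were present in both libraries, 18 of them members in WT and 19 in Btla-/-, and none of the 30 had the same beta CDR3 in both.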

How the data were processed

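T cell receptor transcripts of thymic CD4 SP cells were sequenced with the 10x Genomics V(D)J workflow. The authors assembled contigs with Cell Ranger 7.2.0 and its prebuilt mouse GRCm38 V(D)J reference, and deposited, for each contig, raw counts of its reads and of its UMIs with the V, D, J and C calls and CDR3. The deposited rows give the contig length in bases, another unit, which was not used in a comparison. The WT library held 26700294 reads and 80347 UMIs on 6003 contigs (1862 TRA, 4141 TRB), and the Btla-/- library 22026825 reads and 75456 UMIs on 7101 contigs (1920 TRA, 5181 TRB). Series tables made by the authors with scRepertoire were not used here.

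Rows were grouped by library and barcode, with no further filter and no removal of droplets with 2 cells. Shares were given with exact Clopper-Pearson 95% intervals (scipy 1.17.1, pandas 2.3.3, Python 3.11.15). Genes were compared where they held at least 1% of either set, and called apart where the intervals did not overlap. No test was made, as each genotype was 1 library and cells are not replicates. V and J ends and gene positions came from the GRCm38 chromosome 6 sequence and GENCODE M21. The longest match to the germline V end was taken first and then that to the J end, with TRBV13-2 as germline for the joint call. The comparison code was checked on simulated barcodes with known differences. The genes named were the 3 TRBV and 2 TRBJ genes most used by members in each library, those with intervals apart, and the 3 TRBV and 2 TRBJ genes with the largest difference of the same sign in both libraries. TRBC genes were always given. The members and lists were chosen with earlier results of these data known. Alternatives changed the UMI minimum, the sets compared, the weight of repeated betas, the distribution of beta UMIs and the barcodes present in both libraries.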

Additional observations from a re-analysis of the deposited data

Results flagged for a closer look

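Differences between beta-only and paired barcodes had opposite signs in the libraries for the genes and features given here, taken from all genes with at least 1% of either set in both libraries. With 1 library per genotype the difference between the libraries was not tested, and the intervals of beta-only and paired barcodes overlapped for each in both libraries. The TRBJ2 cluster was used by 60.4% of WT members against 59.5% of paired barcodes and by 59.2% of Btla-/- members against 62.1%, so the difference in Btla-/- minus that in WT was -3.76 percentage points. Among TRBJ genes this value was 2.10 for TRBJ1-6 (-0.71 in WT, 1.39 in Btla-/-), -1.82 for TRBJ1-5 (0.88 in WT, -0.94 in Btla-/-), 1.31 for TRBJ1-2, -0.91 for TRBJ2-5 and -0.50 for TRBJ2-4. Among TRBV genes it was 1.62 for TRBV14 (-0.70 in WT, 0.92 in Btla-/-), 1.23 for TRBV19, -1.12 for TRBV26, 1.06 for TRBV5 and -0.47 for TRBV20. For hydrophobic residues at positions 6 and 7 it was 0.758 points, and for a further cysteine in the CDR3 it was -1.01 points. The cysteine count takes in the germline cysteine of TRBV1, whose use differed by 0.617 points in WT and 0.000333 in Btla-/-.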

How the results depend on the processing

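Of 92 alternative values for the main comparisons, 81 stayed within counting error of the reported value (counts of genes within 1.5 times) and 11 moved. The 81 include the values of the setting that admits members with more than 1 beta chain. That setting added no barcode, so its values could not move and are no check. Leaving out the 30 barcodes of both libraries, or asking for a beta contig of at least 3 UMIs, removed few barcodes. Values under these settings could move little and are a weak check. Dropping contigs under 3 UMIs before grouping raised the beta-only share to 69.3% in WT and 78.4% in Btla-/-, since alpha chains with few UMIs are then lost, and gave a difference of medians of -1 beta UMI in both libraries (0 as reported). The mean in place of the median gave differences of 3.56 UMIs in WT and 1.35 in Btla-/-. The median CDR3 length differed by 0 amino acids in both libraries, while the difference of means lay between 0.15 and 0.18 in WT and between 0.16 and 0.20 in Btla-/- over 10 other settings, which include the difference within each TRBV gene, TRBJ gene and combination of both, chosen after seeing the data. In Btla-/-, 1 TRBJ gene in place of 0 had intervals apart when contigs under 3 UMIs were dropped before grouping, when the beta contig had to have at least 3 UMIs, and when barcodes of both libraries were left out. It was TRBJ2-2 each time, with 5.59% against 8.54%, 5.37% against 7.87% and 5.46% against 7.70%. Counting each distinct beta once, standardising members to the beta UMIs of paired barcodes or allowing more than 1 alpha chain left 0 TRBV and 0 TRBJ genes apart in both libraries. Of the named genes, the joint call TRBV12-2+TRBV13-2 in WT had the other sign under 1 of 7 settings (0.59 points at the highest) and no other named gene changed sign in either library. Dropping contigs under 3 UMIs before grouping moved the size of several: TRBV31 in Btla-/- went from -1.20 to -2.11 points, TRBV12-1 in WT from 1.26 to 0.52, TRBJ2-2 in WT from -1.05 to -1.83, TRBJ2-3 in WT from 1.32 to 0.73, TRBV16 in Btla-/- from -0.77 to -1.40 and TRBV5 in Btla-/- from 0.79 to 0.26. Admitting members with more than 1 beta chain added none. No paired analysis was possible because each genotype was 1 library. Depth limits the rarer calls, as TRBV23 and TRBV30 had 18 and 7 WT members.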
